A study of Mus musculus with 11 samples.

Results

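The 8 genes described here, Zfas1, Gas5, Snhg1, Snhg3, Snhg5, Snhg6, Snhg8 and Snhg12, are host genes of small nucleolar RNAs (snoRNAs). They are 8 of the 55228 gene symbols in the deposited count table, and all 8 had enough counts to be tested. The 8 symbols were selected on earlier results of these same libraries together with their shared function, and which comparison weighed in that choice is not recorded. Every comparison below is therefore treated as used in the choice: levels and differences of the 8 are a description, no p-value is printed for them, and nothing is supported with them.

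The study sequenced RNA of the mouse embryonic stem cell line EN52.9.1 (CTCF-AID). Its own CTCF, the zinc finger factor that anchors chromatin loops, is fused to a degron and is destroyed when the plant hormone auxin (here indole-3-acetic acid) is added. All 4 groups carry this degron and grew in serum medium with leukaemia inhibitory factor. EV cells without auxin (EV untreated, a genotype the labels give as wild-type) have 3 libraries, and EV cells in 500 µM auxin (EV auxin, endogenous CTCF depleted) have 2 libraries, with another EV auxin replicate not analysed here. Auxin-treated cells given back FL CTCF (FL auxin) have 3 libraries, and auxin-treated cells given back CTCF with the H373R substitution (H373R auxin, titled ZF4) have 3 libraries. Ctcf RNA was at 325 ± 27 CPM (counts scaled to the library total and by the trimmed mean of M-values, TMM; SD, n = 3) in EV untreated, 361 ± 3.6 (n = 2) in EV auxin, 337 ± 11 (n = 3) in FL and 321 ± 13 (n = 3) in H373R, so no added Ctcf RNA was seen in cells given back CTCF. Since the degron acts on the protein, these counts do not check depletion, and whether they include the reintroduced transcript is not given in the sources used here. What EV and FL abbreviate is not spelled out in the labels, nor is the auxin time, the promoter of the reintroduced CTCF, or whether a group is 1 clone. FL and H373R cells were measured only in auxin, so reintroduced CTCF and any other difference between those cells and EV cells cannot be told apart. The labels do not say that replicates came from separate cultures, so the spread between libraries may be technical.

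Total counts ranged from 13465241 to 29902246 per library, and the 8 genes together held between 0.0232% and 0.0392% of them. EV untreated replicate 1 stood apart from its group: its deviations from the group mean followed the GC content of the genes (r = 0.56 across 16215 genes, which are not independent replicates). EV untreated replicates 2 and 3 were at r = -0.38 and -0.32, and FL replicate 1 showed a trend too (r = 0.32). Deviations from 1 group mean are not independent of each other. All 9 embryonic stem cell markers checked (Pou5f1, Nanog and others) were present in every group, with a summed level of 5721 to 6385 CPM. Markers of other cell types were low, but the 6 primitive endoderm markers (Gata6, Gata4, Sox17, Sox7, Pdgfra and Dab2) summed to 27.8 to 30.3 CPM in EV untreated, 31.0 to 31.2 in EV auxin, 99.8 to 109 in FL and 61.6 to 68.4 in H373R. The 3 neural markers summed to 22.1 to 24.3, 16.7 to 17.6, 33.3 to 34.4 and 25.0 to 25.2 CPM in the same order. The 3 mesendoderm markers summed to 7.39 to 7.93, 8.27 to 8.55, 10.8 to 12.8 and 10.7 to 10.8 CPM, and the 4 fibroblast markers to 29.5 to 37.5, 30.9 to 35.1, 41.7 to 56.1 and 37.7 to 43.7 CPM, again in that order. The 4 trophoblast markers summed to 7.60 to 13.8 CPM over all libraries, with overlap between EV, FL and H373R. None of these markers was at 0 in a whole group. The sums of the primitive endoderm, neural, mesendoderm and fibroblast markers were thus higher in the FL and H373R libraries. In those libraries most of the 8 host RNAs were lower. Single markers need not follow their sum. The lowest neural marker value was 3.01 CPM in EV untreated and 3.49 in EV auxin, but 1.59 in FL and 1.81 in H373R. A single fibroblast marker reached 46.1 CPM in FL and so made up most of that sum. The part of these markers in the result was not tested. In bulk RNA, fewer cells of a type and less RNA per cell cannot be told apart.

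snoRNAs guide chemical modification of ribosomal and other RNAs: box C/D snoRNAs (named Snord) guide methylation and box H/ACA snoRNAs (named Snora) guide pseudouridylation. In mammals most are cut out of introns of a host transcript, and the hosts listed here are long non-coding RNAs whose spliced exons carry no long reading frame. Several spliced host RNAs, Gas5 being the classic case, are translated over short frames and removed by nonsense-mediated decay, and many start with an oligopyrimidine tract (5′TOP) like ribosomal protein mRNAs, which links them to growth signalling. Gas5 was found as a transcript that accumulates in growth-arrested cells, and Zfas1 lies antisense to the start of Znfx1.

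The sequence around the transcription start is shown because many RNAs of this class begin with a 5′TOP. Another reason is that Zfas1 and the upstream Gas5 start have only a short run of C there. RefSeq starts (GRCm38.p6) were matched for 7 of the 8 genes, with 2 starts for Gas5. Snhg6 had no entry. Each window below runs from 30 bases before the start to the 30 bases that begin with it, 5′ to 3′ on the gene's strand, and capitals mark the longest run of C and T that touches the 21 bases centred on the start.

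Zfas1, chr2:167062904-167062963, plus strand: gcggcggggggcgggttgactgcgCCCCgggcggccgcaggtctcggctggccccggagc

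Gas5, upstream start, chr1:161034571-161034630, plus strand: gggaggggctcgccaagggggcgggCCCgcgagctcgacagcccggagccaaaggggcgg

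Gas5, downstream start, chr1:161035136-161035195, plus strand: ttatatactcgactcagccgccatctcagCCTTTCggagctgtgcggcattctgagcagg

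Snhg1, chr19:8723457-8723516, plus strand: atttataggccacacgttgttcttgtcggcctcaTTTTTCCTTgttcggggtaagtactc

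Snhg5, chr9:88522868-88522927, minus strand: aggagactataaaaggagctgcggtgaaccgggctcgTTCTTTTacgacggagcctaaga

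Snhg12, chr4:132308648-132308707, plus strand: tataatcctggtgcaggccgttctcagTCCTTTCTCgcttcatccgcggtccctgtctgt

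Snhg3, chr4:132353657-132353716, minus strand: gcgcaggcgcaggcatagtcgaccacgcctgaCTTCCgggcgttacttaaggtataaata

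Snhg8, chr3:123508307-123508366, minus strand: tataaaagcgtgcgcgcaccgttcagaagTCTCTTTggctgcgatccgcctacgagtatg

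A 5′TOP start in the strict sense, a C at the annotated start followed by at least 4 pyrimidines, was present at the downstream Gas5 start and at Snhg8, against 2.5053% of all 32851 RefSeq promoters. The longest C and T run lay off the annotated start in Zfas1, the upstream Gas5 start, Snhg1, Snhg3 and Snhg5, and in Snhg12 it spans the start, whose base is a T, so a start placed some bases away could alter this count. Over 300 bases (250 before to 50 after the start), TATAAA on either strand was present at Snhg1, Snhg3, Snhg5 and Snhg8, against 13.616% of all promoters. CACGTG, the E-box bound by Myc among others, which reads the same on both strands, was in none of the 7, against 7.1505% of all promoters. A series of 4 runs of at least 3 G with 1 to 7 bases between them, on either strand, a pattern that can fold into a G-quadruplex, occurred at Zfas1 alone among the 7, against 18.5991% of all promoters. It covers the bases from -39 to -16 of the Zfas1 start on the gene's own strand, and capitals mark the runs of G.

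Zfas1 G-rich match, chr2:167062895-167062918, plus strand: GGGGaGGGcgcggcGGGGGGcGGG

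A match to such letters is a description and not a bound or folded site.

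In the GENCODE M21 annotation of GRCm38, Zfas1 lies at chr2:167062934-167065862 on the plus strand, Gas5 at chr1:161034422-161038539 (plus), Snhg1 at chr19:8723475-8726443 (plus) and Snhg5 at chr9:88521050-88522929 (minus). Snhg6 lies at chr1:9941959-9944118 (minus), Snhg12 at chr4:132308623-132311024 (plus), Snhg3 at chr4:132348014-132353686 (minus) and Snhg8 at chr3:123507552-123508404 (minus). Retained-intron models make up 4 of 5 Zfas1 transcripts, 20 of 25 Gas5 transcripts, 14 of 18 Snhg1 transcripts and 3 of 6 Snhg5 transcripts. The merged exons of Zfas1, Snhg1, Snhg8 and Snhg12 cover their whole span. At gene level, a read from an unspliced or partly spliced Snhg1, Snhg8 or Snhg12 RNA thus counts like one from the mature form. In this annotation the same holds for Zfas1, but the deposited TPM imply 1901 bases for it instead of 2929. Which bases were counted for Zfas1 is not known.

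After auxin alone 1 of the 8, Snhg1, passed the threshold, an adjusted p under 0.05 (edgeR, adjusted over all 16420 tested genes), and was lower, as were 9.4% of tested genes. In cells given back FL or H373R CTCF 5 were past it and lower than in EV auxin, as were 13.4% of tested genes with FL, 11.7% with H373R and 8.12% with both. These 5 were Zfas1, Gas5, Snhg1, Snhg5 and Snhg12. Zfas1 differed most, at 0.405 times the EV auxin level with FL CTCF and 0.428 times with H373R CTCF. Snhg3 and Snhg8, the hosts whose named snoRNAs are all of the H/ACA class, were not past it. Snhg6, host of a box C/D snoRNA, was not past it either, while Snhg12, which carries both classes, was. The calls thus do not divide by class. The genes are taken in the order of those classes, an order set with their values known.

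**Figure D1:**
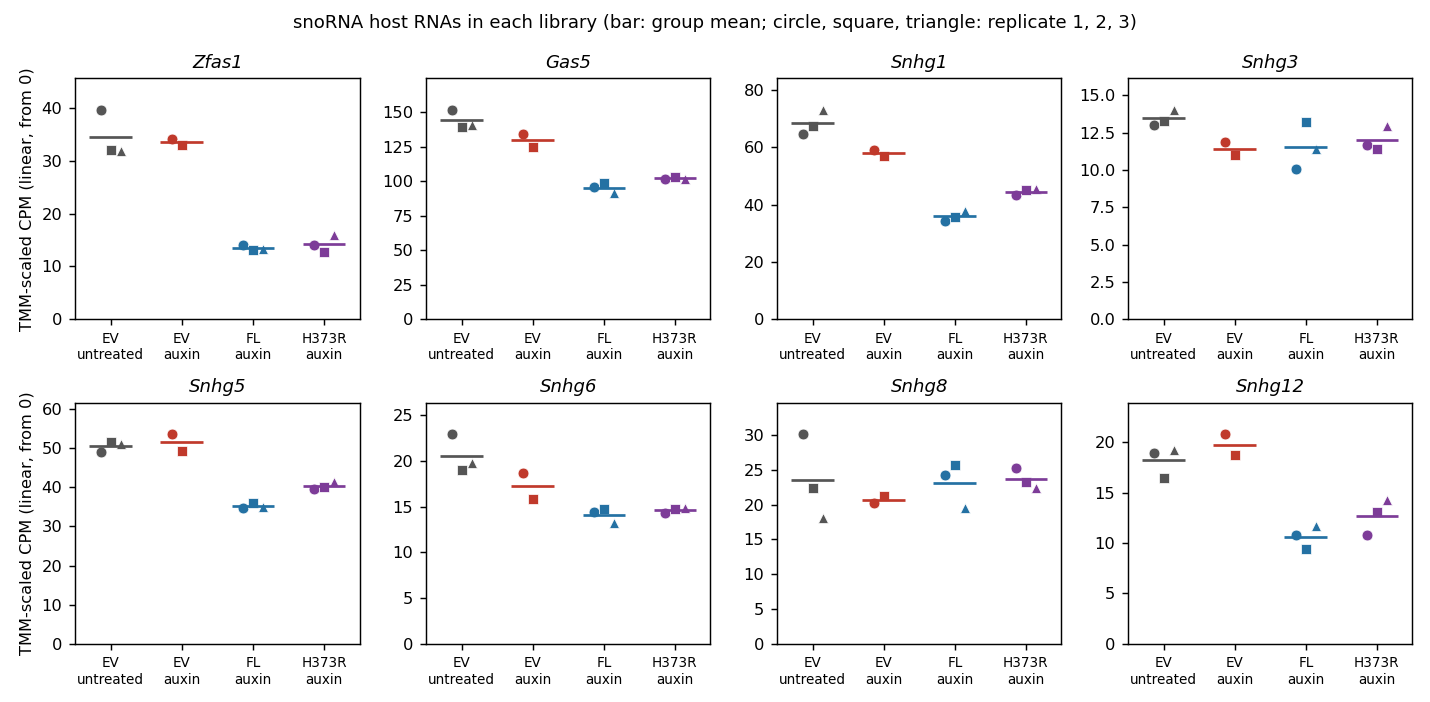
TMM-scaled CPM of the 8 snoRNA host RNAs (linear vertical axes from 0, 1 panel per gene) in the 11 libraries by group. Symbols are replicates and bars are group means: the Zfas1 points of FL and H373R sit between 12.6 and 16.0, below all EV points (31.8 to 39.6), whereas the Snhg3 and Snhg8 points of FL and H373R lie within or beside the EV points.

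Zfas1 hosts Snord12 and related box C/D snoRNAs. In EV untreated it was at 39.6, 32.0 and 31.8 CPM in replicates 1 to 3, and in EV auxin at 34.0 and 32.9 CPM. With FL CTCF it was at 14.1, 13.1 and 13.3 CPM, and with H373R CTCF at 14.1, 12.6 and 16.0 CPM. Both EV groups overlapped, the FL and H373R groups overlapped, and no library of the latter 2 came near an EV library. The log2 fold change was -0.048 ± 0.10 (SE) for EV auxin against EV untreated, -1.30 ± 0.11 for FL against EV auxin and -1.22 ± 0.11 for H373R against EV auxin. Ordered from the lowest fold change, Zfas1 was number 118 of 16420 tested genes with FL and number 67 with H373R. H373R and FL differed by 0.079, with a 95% interval of -0.15 to 0.31, so a difference of up to about that size is within the error. These values rest on 173 to 1189 counts per library.

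Gas5, the host RNA with the highest length-scaled level of the 8 in both EV groups, hosts a series of box C/D snoRNAs that includes Snord47, Snord78 and Snord80. EV untreated libraries gave 152, 140 and 141 CPM, and EV auxin libraries 134 and 125 CPM. FL libraries gave 95.6, 99.0 and 91.5 CPM, and H373R libraries 102, 103 and 102 CPM. The 4 groups followed each other without overlap, from EV untreated through EV auxin and H373R to FL. The step from EV untreated to EV auxin was -0.15 ± 0.056 in log2 and did not pass the threshold. FL lay -0.44 ± 0.057 and H373R -0.34 ± 0.056 from EV auxin, both past it, and H373R exceeded FL by 0.10 (95% interval -0.0083 to 0.21), not past it.

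Snhg1, host of Snord22 and other box C/D snoRNAs, was the only one of the 8 past the threshold in EV auxin against EV untreated. Its EV untreated libraries were at 64.7, 67.4 and 73.1 CPM and its EV auxin libraries at 59.1 and 57.1 CPM, a log2 fold change of -0.24 ± 0.065. That call was lost without EV untreated replicate 3 (-0.18) and without EV auxin replicate 1 (-0.26) or 2 (-0.22). FL libraries were at 34.3, 35.8 and 37.7 CPM and H373R libraries at 43.2, 45.0 and 45.6 CPM. Snhg1 was thus lowest with FL, and no 2 groups overlapped. Against EV auxin the log2 fold change was -0.69 ± 0.068 with FL and -0.38 ± 0.066 with H373R, and H373R was above FL by 0.31 ± 0.062, past the threshold.

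Snhg5 hosts Snord50a and Snord50b. It was at 49.0, 51.7 and 51.1 CPM in EV untreated and at 53.6 and 49.4 CPM in EV auxin. FL libraries were at 34.6, 36.0 and 35.0 CPM, and H373R libraries at 39.5, 40.1 and 41.5 CPM. The EV groups overlapped, and FL, H373R and EV formed 3 separate levels. Log2 fold changes were 0.025 ± 0.060 after auxin, -0.55 ± 0.062 for FL and -0.35 ± 0.060 for H373R against EV auxin. H373R exceeded FL by 0.20 ± 0.056, past the threshold by a small margin: the call was lost in 15 of 24 alternative settings, among them each of the 10 that left out 1 library other than EV untreated replicate 1, with values from 0.17 to 0.23 over all 24.

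Snhg6, host of Snord87, differed in the same direction by less. Its libraries were at 22.9, 18.9 and 19.7 CPM in EV untreated and 18.7 and 15.8 CPM in EV auxin. With FL CTCF they were at 14.4, 14.7 and 13.2 CPM, and with H373R CTCF at 14.3, 14.8 and 14.8 CPM. All FL and H373R libraries were below both EV auxin libraries, yet the fold changes of -0.29 ± 0.10 and -0.23 ± 0.10 did not pass the threshold. Without EV untreated replicate 1, which stood apart, both passed it (-0.27 and -0.22). Against EV untreated, FL (-0.55 ± 0.090) and H373R (-0.49 ± 0.087) passed it with all libraries.

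Snhg12 carries both classes, with Snora16a, Snora44, Snora61 and Snord99. EV untreated libraries gave 19.0, 16.5 and 19.2 CPM and EV auxin libraries 20.8 and 18.7 CPM. FL libraries gave 10.8, 9.42 and 11.7 CPM, and H373R libraries 10.8, 13.1 and 14.2 CPM. FL and H373R overlapped each other and lay below all EV libraries. After auxin the log2 fold change was 0.11 ± 0.11. FL lay -0.88 ± 0.12 and H373R -0.63 ± 0.12 from EV auxin, and H373R was 0.24 above FL (95% interval -0.00083 to 0.49), not past the threshold.

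Snhg3, host of Snora73a and Snora73b, starts beside Rcc1. It was at 13.0, 13.3 and 14.0 CPM in EV untreated, 11.9 and 11 CPM in EV auxin, 10.1, 13.2 and 11.4 CPM in FL and 11.7, 11.4 and 12.9 CPM in H373R. EV auxin lay below EV untreated without overlap, and the FL and H373R libraries spread across the EV auxin values. The log2 fold changes were -0.24 ± 0.11 after auxin, 0.0048 with FL (95% interval -0.23 to 0.24) and 0.077 with H373R (-0.15 to 0.31) against EV auxin, none past the threshold.

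Snhg8, host of Snora24, varied most within its untreated group, at 30.1, 22.4 and 18.1 CPM. EV auxin libraries gave 20.2 and 21.2 CPM, FL libraries 24.2, 25.7 and 19.5 CPM and H373R libraries 25.3, 23.2 and 22.5 CPM. The highest untreated value is that of EV untreated replicate 1. FL against EV auxin was 0.15 (95% interval -0.20 to 0.51) and H373R against EV auxin 0.19 (-0.16 to 0.53), neither past the threshold, although all 3 H373R libraries were above both EV auxin libraries. H373R against EV untreated was 0.0002 with all libraries and 0.23, past the threshold, without EV untreated replicate 1.

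**Figure D2:**
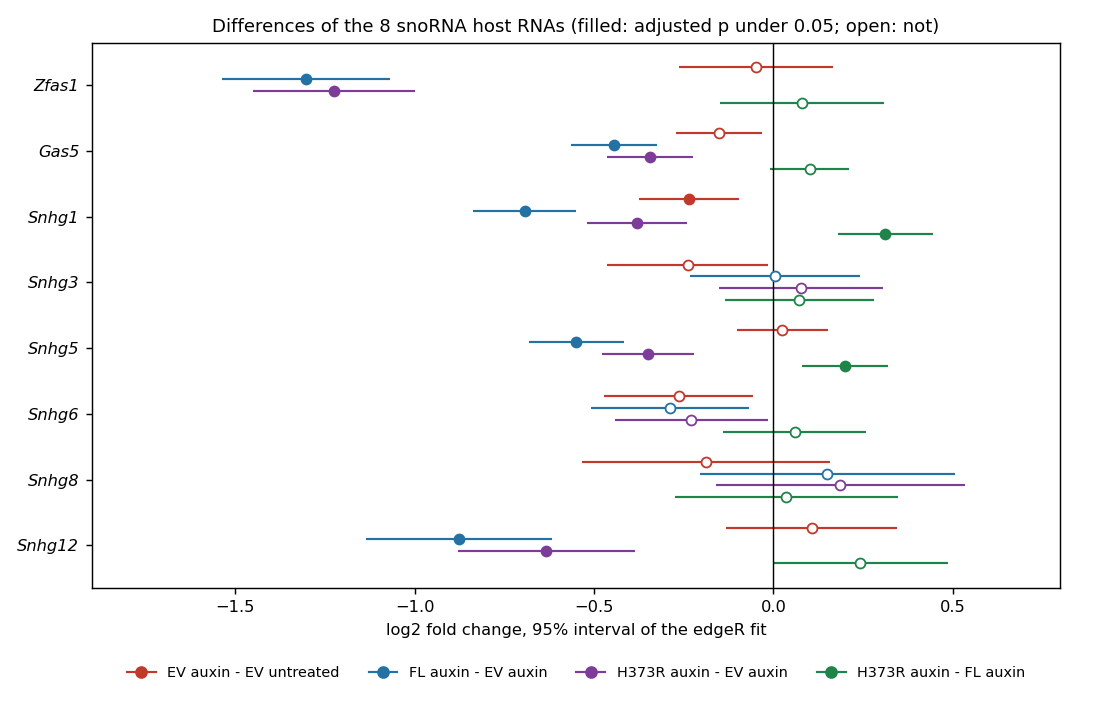
Log2 fold change of each of the 8 host RNAs (horizontal axis, with the 95% interval of the edgeR fit) in 4 comparisons. Filled points passed an adjusted p of 0.05: they are Zfas1, Gas5, Snhg1, Snhg5 and Snhg12 for FL and H373R against EV auxin, Snhg1 for auxin alone, and Snhg1 and Snhg5 for H373R against FL.

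Counted over the 8, auxin alone put 1 past the threshold, lower, where 9.4% of the 16420 tested genes were called lower and 11.3% higher. FL against EV auxin put 5 of 8 past it, all lower, where 13.4% of tested genes were called lower and 11.1% higher. H373R against EV auxin put the same 5 past it, all lower, against 11.7% lower and 10% higher among tested genes, and 8.12% of tested genes were called lower in both. These 2 comparisons share the 2 EV auxin libraries, so they are not independent of each other. H373R against FL called 2 of 8, both higher, against 3.14% higher and 2.82% lower. Since the members were picked with these results known, nothing is read from the counts.

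Against EV untreated, FL called 6 of 8 lower (19.2% of tested genes) and H373R the same 6 lower (22.1%), which adds Snhg6 to the 5 above. FL lay at -1.35 for Zfas1, -0.60 for Gas5, -0.93 for Snhg1, -0.52 for Snhg5, -0.55 for Snhg6 and -0.77 for Snhg12. H373R lay at -1.27, -0.50, -0.62, -0.32, -0.49 and -0.53 in the same order. The levels in cells with reintroduced CTCF were thus farther from untreated cells than those of cells with auxin alone for these 6 genes. Median log2 fold changes over the 8 were -0.17 after auxin, -0.50 with FL and -0.35 with H373R against EV auxin and 0.090 for H373R against FL. The medians over all tested genes were 0.0087, -0.014, 0.00031 and 0.0025.

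Groups did not overlap, lower, for 4 of the 8 after auxin (20.4% of tested genes) and for 6 with FL against EV auxin (29.1%). With H373R against EV auxin 6 were lower (28.6%) and 1, Snhg8, was higher (28.4%), and 3 were higher in H373R than in FL (15.4%). Against EV untreated, 6 were lower with FL (22.8%) and 7 with H373R (24.9%). With so few libraries a separation of this kind is common among all genes.

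Levels between genes were compared on the length-scaled TPM (counts divided by gene length and scaled to a common total). In EV untreated the order of mean TPM was Gas5 (144 ± 6.6, SD, n = 3), Snhg5 (110 ± 3.3), Snhg8 (104 ± 26), Snhg1 (86.6 ± 6.2), Zfas1 (68.2 ± 8.6), Snhg6 (67.3 ± 6.9), Snhg3 (51.3 ± 2.5) and Snhg12 (28.6 ± 2.6). Snhg8 overlapped with Snhg5 and with Snhg1 between libraries, and Zfas1 with Snhg6. The order was the same in EV auxin, from 132 TPM for Gas5 through 113.8 for Snhg5, 93.0 for Snhg8, 74.9 for Snhg1, 67.3 for Zfas1, 57.5 for Snhg6 and 44.3 for Snhg3 to 31.5 for Snhg12, with no overlap of neighbours between its 2 libraries.

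With FL CTCF the order changed: Snhg8 led (99.2 ± 13, SD, n = 3) ahead of Gas5 (92.7 ± 2.5), with overlap, followed by Snhg5 (74.4 ± 1.0). Snhg6 (44.9 ± 2.1), Snhg1 (44.2 ± 2.5) and Snhg3 (42.8 ± 5.5) overlapped, and Zfas1 (26.0 ± 1.1) and Snhg12 (16.2 ± 2.0) were lowest. With H373R CTCF Snhg8 (103 ± 6.5) and Gas5 (101 ± 0.25) again overlapped, ahead of Snhg5 (87.0 ± 2.4) and Snhg1 (56.0 ± 1.5). Snhg6 (47.6 ± 0.93) and Snhg3 (45.4 ± 3.2) overlapped above Zfas1 (28.0 ± 3.4) and Snhg12 (19.7 ± 2.7). Zfas1 was the fifth of 8 in both EV groups and the seventh in both others. Its place depends on its length: the deposited TPM imply 1901 bases, 0.649 of the 2929 exonic bases in GENCODE M21, while the other 7 match that annotation within 1%. At the annotated length and with unchanged counts, Zfas1 would have a mean of 44.2 TPM in EV untreated, below the Snhg3 mean. In EV auxin it would have 43.7, within the Snhg3 range of 43.2 to 45.4. With FL it would have 16.9 and with H373R 18.1, beside Snhg12. Counting over a longer gene model could also add reads, which was not tested.

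The snoRNAs themselves are barely seen in these libraries. GENCODE M21 places 32 snoRNA-type genes inside the 8 hosts on the same strand, of which the count table names 31 and 4 had any count. Snora73b, the intronic snoRNA of Snhg3, had 390 counts over the 11 libraries, from 17 to 86 per library. Gm23201 in Zfas1 had 72, Snora73a in Snhg3 had 28 and Snord87 in Snhg6 had 3. Of the 32, 30 overlap an annotated exon of their host, and whether reads shared by both features were left uncounted was not tested. The level of a host RNA here gives no measure of the snoRNAs made from it.

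Of the 8 hosts, 4 start within 5 kb of a protein-coding gene. With FL and H373R Zbtb37 was called lower, as Gas5 was, and the other 3 neighbours were not. Znfx1, a helicase-related zinc finger gene on the opposite strand, starts 81 bases from Zfas1 and shares 82 exonic bases with it. It was at 43.5, 38.2 and 37.7 CPM in EV untreated, 55.1 and 58.0 in EV auxin, 51.1, 51.2 and 47.3 in FL and 54.8, 52.8 and 49.9 in H373R. Znfx1 rose after auxin by 0.51 ± 0.072 in log2 (edgeR, adjusted p = 1.25e-04), whereas its fold changes against EV auxin were -0.18 with FL (adjusted p = 0.078) and -0.11 with H373R (adjusted p = 0.307). The value with FL was called lower in 5 of 24 alternatives, among them the fit without EV untreated replicate 1 (-0.17). Zfas1 and Znfx1, at neighbouring starts, thus had separate courses: the first overlapped between the EV groups and was low in the others, the second was lowest in untreated cells. The difference between the 2 genes was not tested. Whether counting used the strand is not given in the sources used here, so reads in the shared bases are uncertain. Zfas1 also shares 189 exonic bases with the RNA gene Gm27494 on its own strand. A strand setting would not separate reads there, so these are uncertain too.

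Zbtb37, a BTB zinc finger gene, starts 427 bases from Gas5 on the opposite strand, with no shared exonic bases. Its libraries were at 10.6, 12.2 and 10.7 CPM in EV untreated, 9.30 and 8.51 in EV auxin, 5.11, 6.61 and 5.30 in FL and 6.45, 5.71 and 4.92 in H373R. Like Gas5 it was lower with reintroduced CTCF: by edgeR the log2 fold change against EV auxin was -0.67 ± 0.14 with FL (adjusted p = 0.00271) and -0.64 ± 0.13 with H373R (adjusted p = 0.00318), and after auxin -0.33 ± 0.12 (adjusted p = 0.0726). In limma on TPM the call with FL was lost in 1 of 3 settings (-0.42) and that with H373R in all 3 (-0.40 to -0.64).

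Slc3a2, the heavy chain of amino acid transporters, starts 106 bases from Snhg1 on the opposite strand. It was at 367, 326 and 328 CPM in EV untreated and 286 and 295 CPM in EV auxin, and at 327 to 349 CPM in FL and 328 to 335 CPM in H373R. By edgeR it fell after auxin by 0.23 in log2 (adjusted p = 0.0086) and was higher with FL (0.22, adjusted p = 0.0112) and H373R (0.19, adjusted p = 0.0245), so that its mean was near the untreated one where Snhg1 was lower. Its fall was not called without EV auxin replicate 1, nor were its values with FL and H373R without either EV auxin library, and that with H373R also not without H373R replicate 2 or 3.

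Rcc1, the nucleotide exchange factor of Ran, starts 81 bases from Snhg3 on the same strand and shares 135 exonic bases with it. It was at 216, 197 and 199 CPM in EV untreated, 132 and 140 in EV auxin, 209, 188 and 189.8 in FL and 194, 196 and 194 in H373R. Rcc1 fell after auxin by 0.58 in log2 (edgeR, adjusted p = 5.39e-06) and was 0.52 higher with FL (adjusted p = 2.97e-05) and 0.52 higher with H373R (adjusted p = 7.09e-05). Snhg3 was 0.0048 and 0.077 from EV auxin in those 2 comparisons. Snhg3 also shares 705 exonic bases with Gm17300 on the opposite strand, and Snhg6 shares 127 with Mcmdc2, which makes part of their reads uncertain.

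**Figure D3:**
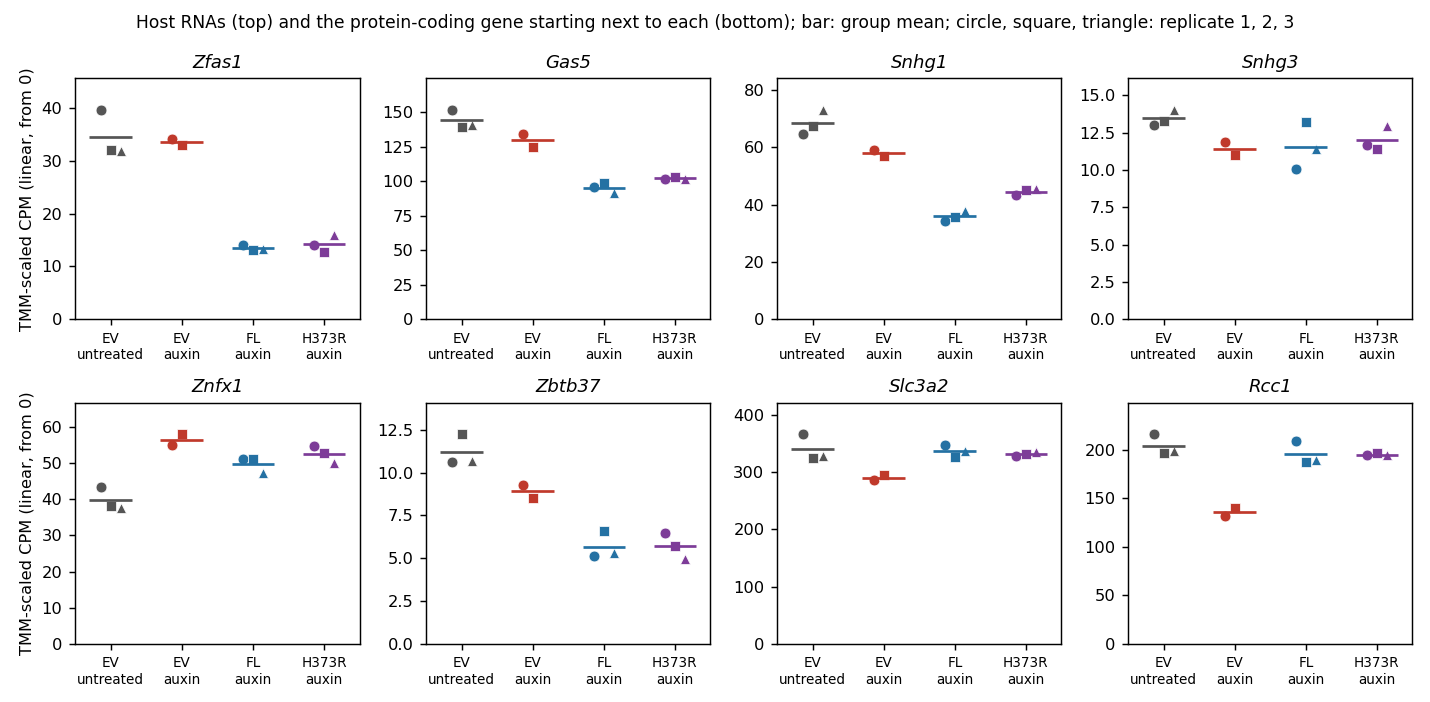
TMM-scaled CPM (linear vertical axes from 0) of 4 host RNAs in the upper row and of the protein-coding gene that starts next to each in the lower row, by group and library, with bars at group means. Zfas1 and Znfx1, Snhg1 and Slc3a2, and Snhg3 and Rcc1 differ in course, while Zbtb37 is lowest in FL and H373R (4.92 to 6.61 CPM) as Gas5 is.

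Other non-coding snoRNA hosts were taken as every further Snhg symbol with a number, plus Dancr: 11 were in the table and 10 were tested, Snhg9 having too few counts. After auxin 3 of the 10 were called lower and none higher (median log2 fold change -0.27, all tested genes 0.0087). Among all tested genes 9.4% were lower and 11.3% higher after auxin, 13.4% and 11.1% with FL, and 11.7% and 10% with H373R. With FL against EV auxin 3 were lower and 1 higher (median -0.39, all tested -0.014), and with H373R 3 were lower and 1 higher (median -0.17, all tested 0.00031). Without EV untreated replicate 1, 5 were lower with FL. Against EV untreated 7 were lower with FL (19.2% of tested genes) and 6 with H373R (22.1%), and none higher.

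Snhg17 had the largest fall of these. Its libraries were at 26.4, 22.0 and 21.5 CPM in EV untreated and 3.48 and 4.52 CPM in EV auxin, a log2 fold change of -2.52 ± 0.13 (edgeR, adjusted p = 2.92e-09). With FL CTCF it was at 7.30, 6.99 and 8.26 CPM, above EV auxin by 0.89 (adjusted p = 6.52e-04), and with H373R CTCF at 4.30, 3.91 and 4.12 CPM, 0.019 from EV auxin (edgeR, adjusted p = 0.952). H373R was below FL by edgeR at -0.88 ± 0.13 (adjusted p = 9.42e-04). None of the 8 was called both lower after auxin and higher with FL.

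Snhg15 and Snhg16 were closer to the 8. Snhg15 was at 16.7 ± 1.8 CPM (SD, n = 3) in EV untreated, 12.2 ± 0.24 (n = 2) in EV auxin, 7.35 ± 0.35 (n = 3) in FL and 7.96 ± 0.53 (n = 3) in H373R. It fell after auxin by 0.46 in log2 (edgeR, adjusted p = 0.00386) and was lower again with FL by 0.72 (adjusted p = 3.25e-04) and with H373R by 0.61 (adjusted p = 0.00101). Snhg16 is named because its course over these same libraries was among the nearest to that of Zfas1, which was low with FL and H373R. Its adjusted p-values are therefore a description and not a test. After auxin Snhg16 was not past the threshold (-0.14 ± 0.10, edgeR, adjusted p = 0.396). It was lower with FL (-1.08 ± 0.12, edgeR, adjusted p = 1.43e-05) and H373R (-0.66 ± 0.11, adjusted p = 6.82e-04). Snhg16 was higher in H373R than in FL by 0.42 (edgeR, adjusted p = 0.0357), the order found for Snhg1 and Snhg5. The last call was lost without EV auxin replicate 2 and without any 1 of the FL or H373R libraries. Snhg11, named here after its values were seen, lay at -0.90 with FL (edgeR, adjusted p = 7.67e-04) and -0.69 with H373R (adjusted p = 0.00395) against EV auxin. Snhg4 fell by 0.53 after auxin (edgeR, adjusted p = 0.00208) and was not called against EV auxin. Snhg18, likewise singled out afterwards, was the member of this list higher with H373R (0.74, edgeR, adjusted p = 0.0154), a call lost without either EV auxin library.

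**Figure D4:**
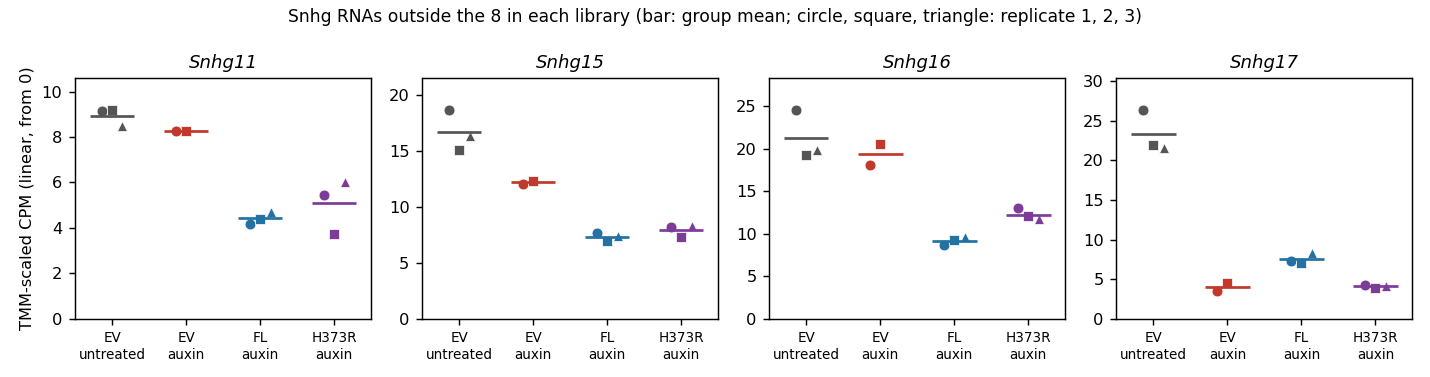
TMM-scaled CPM (linear vertical axes from 0) of Snhg11, Snhg15, Snhg16 and Snhg17 by group and library, with bars at group means. Snhg11, Snhg15 and Snhg16 are lowest in FL and H373R, whereas Snhg17 drops in EV auxin (3.48 and 4.52 CPM) and is higher in FL than in H373R.

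Genes of linked processes were counted in the same fit. Among all tested genes 11.3% were called higher and 9.4% lower after auxin. With FL against EV auxin the shares were 11.1% higher and 13.4% lower, and with H373R 10% and 11.7%. Each list count below stands beside these shares, and several are near or under them. Of 82 cytosolic ribosomal protein genes, whose mRNAs share the 5′TOP, 3 were called lower and none higher after auxin, 24 higher and 1 lower with FL against EV auxin, and 4 higher with H373R (median log2 fold changes -0.0083, 0.18 and 0.11). The 3 that fell after auxin were Rplp0 (-0.27, edgeR, adjusted p = 0.00248), Rpl36 (-0.45, adjusted p = 0.00673) and Rpl36a (-0.32, adjusted p = 0.0284), and all 3 were higher with FL than in EV auxin (0.40, 0.42 and 0.32). Without EV auxin replicate 2 none of these 3 falls was called. With FL the Rpl36 call was lost without either EV auxin library, and the Rpl36a call without EV auxin replicate 2 or FL replicate 1 or 2. The number higher with FL was 3 without EV auxin replicate 2, 13 and 6 without FL replicates 1 and 2, 40 without FL replicate 3 and 51 without EV untreated replicate 1. With H373R, leaving out 1 library gave from 0 (without EV auxin replicate 2) to 15 (without EV untreated replicate 1), no filter on low counts gave 17, and a fit of only the libraries compared gave 32 higher and 3 lower. With FL, no filter gave 49 and only the libraries compared 42. Of 17 other translation genes with a 5′TOP, such as elongation factors, none was called after auxin (0 also at an unadjusted p under 0.05 and by DESeq2), 5 were higher with FL and 3 higher with H373R (medians 0.013, 0.16 and 0.090). The 5 became 2 without EV auxin replicate 2 or FL replicate 2, 8 without EV untreated replicate 2 and 11 without EV untreated replicate 1. The medians of the 8 host RNAs against EV auxin were -0.50 with FL and -0.35 with H373R, with 6 of the 8 below 0 in each. Snhg3 (0.0048 and 0.077) and Snhg8 (0.15 and 0.19) were above 0. As the 8 were picked with these values known, nothing is read from setting them beside the 2 lists.

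Of 14 protein-coding genes that also host snoRNAs, 2 were called lower after auxin, the nucleolar GTPase gene Gnl3 (-0.20, edgeR, adjusted p = 0.0447) and the helicase gene Eif4a2 (-0.23, adjusted p = 0.0464). With FL against EV auxin 1 was higher and 1 lower, and with H373R 1 was higher and 4 lower, Gnl3 among them (-0.27, edgeR, adjusted p = 0.011). Both calls after auxin were lost without EV untreated replicate 2 or 3 or either EV auxin library, among others. The 4 became 0 without EV auxin replicate 1, 7 without EV untreated replicate 1 and 9 with only the libraries compared. Of 19 tested genes of snoRNP core proteins and assembly, none was called after auxin by edgeR (1 higher and 1 lower at an unadjusted p under 0.05, 1 lower by DESeq2), 1 was higher and 2 lower with FL, and 3 were lower with H373R, or 3 higher and 7 lower without EV untreated replicate 1 and 3 higher and 8 lower with only the libraries compared. Their medians were -0.025, 0.0022 and -0.055. Some genes stand in 2 of these lists, such as Nop56, Dkc1 and Eef2.

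Of 19 nonsense-mediated decay factors, 1 was higher and 1 lower after auxin (all tested genes 11.3% and 9.4%). Against EV auxin 1 was higher and 5 lower with FL (11.1% and 13.4%), and 1 higher and 7 lower with H373R (10% and 11.7%). The medians were 0.0026, -0.094 and -0.092. Without EV auxin replicate 2, 3 were lower with FL and 1 with H373R, and without EV auxin replicate 1, 3 were lower with H373R. Smg5, which takes part in dephosphorylation of Upf1, rose after auxin by 0.47 ± 0.069 (edgeR, adjusted p = 1.76e-04), from 90.6 ± 6.9 CPM (SD, n = 3) to 125 ± 2.4 CPM (n = 2). It was lower with FL (-0.48, edgeR, adjusted p = 1.98e-04) and H373R (-0.23, adjusted p = 0.0291) than in EV auxin, and H373R was above FL (0.25, adjusted p = 0.0257). The values with H373R lost their calls without any 1 H373R library, among others. Nbas fell after auxin by 0.35 (edgeR, adjusted p = 0.00108) and was not called in FL or H373R against EV auxin. Decay of the host RNAs was not measured.

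**Figure D5:**
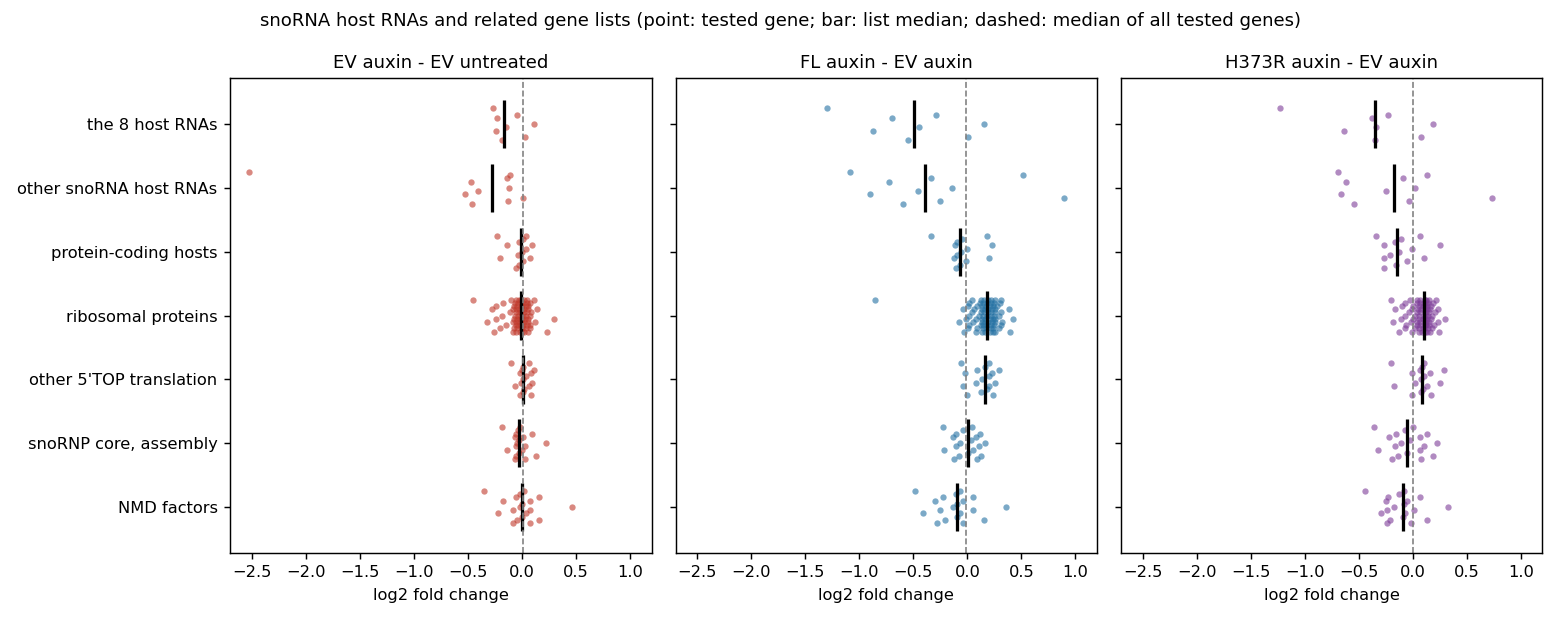
Log2 fold change of each tested gene (points, horizontal axis) in the 8 host RNAs and 6 related lists, in 3 comparisons, with a bar at each list's median and a dashed line at the median of all tested genes. The 8 host RNAs have medians of -0.17, -0.50 and -0.35 from left to right, and the ribosomal protein genes -0.0083, 0.18 and 0.11.

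In H373R against FL, of the 10 other host RNAs 1 was called higher, Snhg16, and 1 lower, Snhg17. Among all tested genes 3.14% were called higher and 2.82% lower there. None of the 14 protein-coding hosts or the 17 translation genes was called by edgeR or DESeq2 in that comparison. At an unadjusted p under 0.05 by edgeR, 3 of the 14 were lower and none of the 17 was called. Of the 82 ribosomal protein genes 1 was called higher and 1 lower (median -0.093, 73 below 0). Of the 19 snoRNP genes 1 was called lower, and of the 19 nonsense-mediated decay factors 2 were called higher.

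The genes whose course was most like that of Zfas1 were found by the root mean square (RMS) difference of centred log2 CPM over the 11 libraries, among 10080 genes whose mean log2 CPM reached 3. They were Ddr2 (a collagen receptor, RMS 0.166), Mllt6 (0.202), Snhg15 (0.229), Gm49759 (0.236) and Snhg16 (0.246). Ddr2 was at 15.0 CPM in EV untreated, 15.8 in EV auxin, 5.97 in FL and 7.01 in H373R on average. For Gas5 they included Ddc (the dopa decarboxylase gene, 0.0483), Slc36a1 (0.0594), 5430416N02Rik (0.0692) and Kansl1 (0.0702). None of the other 7 host RNAs was among the 5 nearest to either, but for Gas5 the cut at 5 decides this. Snhg6 differed from Gas5 by 0.0714, close to Kansl1, and Snhg5 by 0.0890. Among the other 7 host RNAs, the nearest to Zfas1 was Snhg12, at 0.335, farther than Snhg15 and Snhg16. Likeness over 11 libraries in 4 groups reflects mainly the 4 group means.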

How the data were processed

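Per the labels' protocols, a directional kit made the libraries from total RNA and a NovaSeq instrument read them. The authors deposited raw counts per gene symbol and TPM for the same 11 libraries, both used as deposited. The submitters' processing notes name featureCounts, Subread 2.0.3, DESeq2 and the builds mm10 and GRCm38. The aligner, annotation and strand setting are not given in the sources used here. No row lacked a gene name.

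Counts were tested with edgeR 4.0.16 (R 4.3.3): TMM scaling, filterByExpr by group, a group-means model over all 11 libraries (the 2 EV auxin libraries borrow the spread of the others), the quasi-likelihood F test, and Benjamini-Hochberg adjustment over 16420 tested genes at 0.05. Errors of fold changes are standard errors of this fit. Positions are from GENCODE M21 (GRCm38) and start windows from RefSeq (GRCm38.p6). Centred log2 CPM used a prior count of 2.

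The members and all lists were chosen with earlier results of these data known. Named genes are the 8 members, coding genes starting within 5 kb of a member, for each list at most 3 genes called after auxin (lowest adjusted p first), and the 5 genes most like Zfas1 and Gas5, of which 1 is not reported here. Exceptions are stated.

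Each result was recomputed with other scaling (RLE, upper quartile), with DESeq2 1.42.0, with the low-count filter removed or set to 10 counts in all 11 libraries, with just the 2 groups of a comparison, and with a replicate block. Further settings were limma 3.58.1 on log2(TPM + 1) where 2 libraries reached a TPM of 1, the same with 0.1 in place of 1 or unfiltered, an adjusted p under 0.01, offsets for GC content and length (alone and with the block), and each library left out once. The scripts were tested on simulated data.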

Additional observations from a re-analysis of the deposited data

How the results depend on the processing

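Over 24 alternatives, 1105 of 1152 single-gene values kept their direction and side of the threshold, 23 lost a call, 24 gained one and none that was called changed sign; 27 changed sign with no call in either setting and are counted among those kept. Zfas1, Gas5, Snhg1, Snhg5 and Snhg12 stayed past the threshold in FL and H373R against EV auxin in all 24. The number of the 8 called in EV auxin against EV untreated, 1 in the report, was 2 with RLE scaling, 0 with only the libraries compared, 0 in the 3 limma fits on TPM, 0 at an adjusted p under 0.01, and 3 with GC content and length offsets and the replicate block. Without 1 library it ranged from 0 (without EV untreated replicate 3, EV auxin replicate 1 or EV auxin replicate 2) to 2 (without EV untreated replicate 1 or 2). In H373R against FL, 2 in the report, it was 1 with RLE scaling, DESeq2, no filter, the replicate block or an adjusted p under 0.01, and 1 to 2 without 1 library. In these cases the cause was not tested, except that fewer libraries enter some fits. Snhg6 in FL against EV auxin was called in 9 alternatives. Snhg8 in H373R against EV auxin was called with only the libraries compared, and Snhg3 in FL against EV untreated in 6 alternatives. Among 2004 values of other named or listed genes, 1837 kept their direction and side of the threshold, 115 lost a call and 50 gained one. The 2 that turned direction were Snhg14 in H373R against EV auxin, -0.035 in the report's fit and not called, at 0.36 with GC content and length offsets and 0.34 with these and the replicate block. Of 1152 recounts of the gene lists, 285 moved by more than 1.5 times.

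Whether the replicate numbers pair the libraries is not settled. Deviations of same-numbered libraries correlated from -0.087 to 0.28, and those of differently numbered libraries from -0.20 to 0.13. Between EV untreated and FL the same-numbered pairs gave 0.28, 0.12 and 0.096, the others at most 0.071. Deviations from a group mean cannot decide this, since those of the 2 EV auxin libraries mirror each other. With the replicate block, 1, 5, 5 and 1 of the 8 were called after auxin, with FL, with H373R and in H373R against FL. Where an arm was left with 1 library, it was assumed to vary like the other groups. Depth limits precision: Snhg3 and Snhg12 rest on 124 to 570 counts per library and Zfas1 on 173 to 1189.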
